A study of Mus musculus with 8 samples.

Results

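Promoter CGs are the CG dinucleotides close to the start of a gene. They were taken here as autosomal CGs within 1000 bp of the annotated start of a protein-coding gene, with at least 10 reads in each of 8 mouse livers and 1 start for each gene, from the GENCODE annotation of NCBIM37 (mm9). Of 173739 autosomal CGs with this coverage, 59862 (34.5%) were promoter CGs. They belonged to 7717 of 21418 protein-coding autosomal genes (36.0%), with a median of 6 and at most 45 CGs for a gene, and 4883 genes had 5 or more. Upstream of the start lay 17743 of these CGs, and 42119 lay downstream. Each strand of a CG was its own site, and 481 CGs were read on both strands.

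The livers came from 1 female and 1 male of each of 4 groups, all 16 weeks old and fasted for 16 h. B6 is the inbred strain C57BL/6J and DBA is DBA/2J. BXD and DXB are their F1 crosses, with a B6 mother in BXD (C57BL/6JxDBA/2J) and a DBA mother in DXB (DBA/2JxC57BL/6J). No group was treated or carried an engineered allele, and each strain has 1 mouse of each sex. Methylation was read by reduced representation bisulfite sequencing (RRBS), in which MspI cuts DNA at CCGG and bisulfite turns unmethylated cytosines into bases read as thymine. The methylation level of a CG is the percentage of its reads that keep the cytosine. A level from whole liver averages hepatocytes, blood cells, vessel cells and bile duct cells, so a change in the cells and a change within them cannot be told apart.

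In mammals most CGs are methylated. The main exception is the CpG island, a stretch rich in CG that covers the start of most housekeeping genes and many regulatory genes and is normally free of methylation whether or not the gene is transcribed. Some promoters are methylated throughout the body, and genes used only in germ cells are the best known of these. Imprinted promoters carry methylation on the chromosome of one parent, and so read near the middle of the scale in ordinary tissue.

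The libraries of the B6 male and the DBA male stood apart from the others. Their mean promoter levels were 8.58% and 8.62%, and the other 6 mice lay between 5.52% and 7.22%. The gap was found at the CG of the MspI site itself, at the first bases of a read, which made up 14920 promoter CGs (24.9%). Here the B6 male had 26.5% and the DBA male 25.4%, against 13.7% to 19.1% in the other 6. At the CG 3 bases further on, a smaller set of 772 promoter CGs, the same males read 7.12% and 9.73% and the others 3.53% to 5.27%, and these CGs remain in values given without the MspI site. At all promoter CGs outside the site the B6 male was the lowest mouse (2.65%) and the DXB female the highest (3.44%). The part of read ends in these levels was not tested. Values without the MspI site are given for the main means and counts, and for only some of the named promoters. Of the B6 male's reads sorted by strain, 16.1% carried the DBA tag, against 0.338% in the B6 female. Windows of 100 kb in which such reads made up 50% or more held 6.64% of promoter CGs, while 59.7% lay in windows with no sorted read in that mouse. Depth at promoter CGs had a median of 70 reads, from 33 in the DBA female to 142 in the BXD male.

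**Figure D1:**
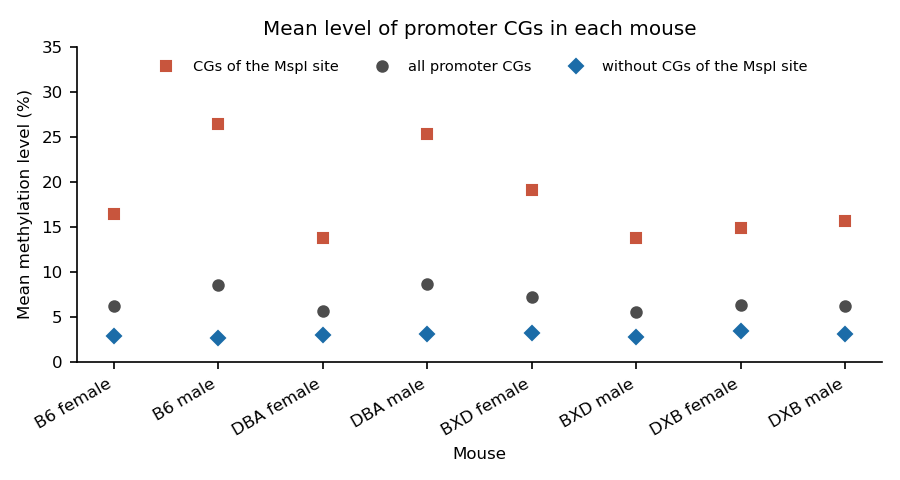
Mean methylation level (%) in each of the 8 mice for all promoter CGs (circles), CGs of the MspI site (squares) and promoter CGs without them (diamonds). The B6 male (26.5%) and the DBA male (25.4%) are highest at the MspI site, and the diamonds lie between 2.65% and 3.44%.

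Sequences are shown for a few promoters that the results turn on, each taken from NCBIM37 in the direction of the gene, 5′ to 3′, with the measured CGs in capitals. CGs left in lower case had too few reads in at least 1 mouse. Fkbp6 and Brdt are methylated promoters of germ cell genes. The stretch of Fkbp6 lies at chr5:135825562-135825861 on the minus strand, 34 to 333 bp after the start, in coding exon and intron. The stretch of Brdt lies at chr5:107760628-107760927 on the plus strand, 450 to 749 bp after the start, in an intron. Apoh, a gene for a plasma protein made by hepatocytes, gives an unmethylated stretch at chr11:108204843-108204978 on the plus strand after the start, where it overlaps a coding exon of Prkca. Zrsr1, an imprinted gene, has an intermediate level, and the 300 bases before its start are at chr11:22872915-22873214 on the plus strand. Sfi1 and Arap1 differed between B6 and DBA. The 200 bases before the start of Sfi1 are at chr11:3093467-3093666 on the minus strand, and the stretch of Arap1 is at chr7:108496714-108497013 on the plus strand after the start, in an intron. Zrsr1 and Arap1 were added after their values were seen.
Fkbp6: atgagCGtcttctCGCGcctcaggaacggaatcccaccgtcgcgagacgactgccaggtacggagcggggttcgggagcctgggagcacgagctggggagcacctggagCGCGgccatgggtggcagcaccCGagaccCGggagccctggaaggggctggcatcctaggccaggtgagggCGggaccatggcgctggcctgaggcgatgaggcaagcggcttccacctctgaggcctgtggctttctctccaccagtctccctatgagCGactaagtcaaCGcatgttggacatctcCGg
Brdt: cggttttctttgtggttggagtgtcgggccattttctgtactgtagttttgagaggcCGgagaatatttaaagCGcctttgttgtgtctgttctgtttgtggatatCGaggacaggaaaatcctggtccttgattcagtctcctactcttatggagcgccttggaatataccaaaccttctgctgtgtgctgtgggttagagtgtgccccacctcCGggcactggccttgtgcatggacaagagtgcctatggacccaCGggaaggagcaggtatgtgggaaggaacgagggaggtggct
Apoh: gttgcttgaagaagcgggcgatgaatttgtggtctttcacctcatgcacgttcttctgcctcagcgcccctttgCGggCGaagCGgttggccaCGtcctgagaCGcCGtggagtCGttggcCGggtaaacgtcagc
Zrsr1: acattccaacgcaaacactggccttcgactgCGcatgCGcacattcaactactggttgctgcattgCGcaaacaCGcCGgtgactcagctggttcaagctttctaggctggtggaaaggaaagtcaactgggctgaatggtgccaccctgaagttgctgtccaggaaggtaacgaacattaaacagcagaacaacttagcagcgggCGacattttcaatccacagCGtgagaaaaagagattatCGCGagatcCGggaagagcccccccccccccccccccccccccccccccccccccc
Sfi1: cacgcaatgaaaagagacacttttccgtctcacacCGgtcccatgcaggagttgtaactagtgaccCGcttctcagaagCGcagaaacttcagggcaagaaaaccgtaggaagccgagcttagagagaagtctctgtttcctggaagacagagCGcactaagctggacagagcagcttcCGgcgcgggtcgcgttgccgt
Arap1: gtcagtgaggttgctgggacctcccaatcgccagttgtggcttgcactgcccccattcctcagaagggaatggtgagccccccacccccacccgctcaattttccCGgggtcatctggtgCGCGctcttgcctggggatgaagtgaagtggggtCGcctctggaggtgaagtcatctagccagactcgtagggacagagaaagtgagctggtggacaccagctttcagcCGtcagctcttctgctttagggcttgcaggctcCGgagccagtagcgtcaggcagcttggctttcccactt

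The stretch of Fkbp6 holds 23 CGs, of which 11 were measured, and their mean level was 86.0% with single CGs from 63.5% to 95.9%. The stretch of Apoh holds 13, of which 8 were measured, and averaged 0.782% with single CGs from 0.278% to 3.17%. Brdt averaged 95.3%, and Zrsr1 averaged 54.5% with single CGs from 39.5% to 59.8%. In the printed stretch of Zrsr1 each measured CG was itself intermediate.

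Promoter CGs were far less methylated than the other CGs that RRBS covered. Their mean level was 6.80 ± 1.22% (mean ± SD, n = 8), and that of the 113877 other CGs was 62.4 ± 0.485%. The difference of -55.6 points had the same direction in 8 of 8 mice (two-sided exact sign-flip permutation test, p = 0.00781, the smallest that 8 mice can give). With the MspI site left out the levels were 3.03 ± 0.253% and 51.6 ± 0.441%. In a single mouse 42.4% to 57.5% of promoter CGs had no methylated read. At 6832 promoter CGs (11.4%) none of the 8 mice had one, against 1.27% of other CGs.

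The contrast was one of classes as well as of means. Among promoter CGs, 68.4% were under 10% in every mouse, and among other CGs 13.2% were. A level of 70% or more in every mouse was found at 1007 promoter CGs (1.68%) and at 48.98% of other CGs. Outside the MspI site, 89.7% of promoter CGs were under 10% in every mouse and 1.01% at 70% or more. CGs that stayed between 35% and 65% in every mouse made up 0.227% at promoters and 1.31% elsewhere. These shares describe the CGs and were not tested.

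Methylation was lowest around the start and rose with distance from it. Within 200 bp of the start the mean level was 5.17 ± 1.11% (n = 8), and more than 800 bp away it was 13.6 ± 1.28%. The difference was 8.45 ± 0.225 points and lay between 8.15 and 8.80 in all 8 mice (two-sided exact sign-flip permutation test, p = 0.00781). Without the MspI site the levels were 2.12 ± 0.230% and 7.79 ± 0.345%. The difference varied less among mice than either level did.

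The upstream side was more methylated than the downstream side. Among CGs more than 200 bp from the start, the mean was 11.1 ± 1.42% upstream and 6.76 ± 1.25% downstream, and the downstream mean was lower in 8 of 8 mice (difference -4.32 ± 0.191 points, two-sided exact sign-flip permutation test, p = 0.00781). The sides were close within 100 bp, at 5.18 ± 1.20% and 5.32 ± 1.05%, and parted farther out. Between 800 and 1000 bp they were 24.0 ± 1.13% and 11.1 ± 1.33%, and 14.9 ± 0.489% and 6.29 ± 0.318% without the MspI site. In bins of 100 bp, the lowest mean was 4.82 ± 1.02%, from 100 to 200 bp downstream, and the highest was 24.97 ± 1.07%, in the outermost upstream bin. In that bin 15.99% of CGs averaged 70% or more, against 1.72% in the first 100 bp of the gene.

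**Figure D2:**
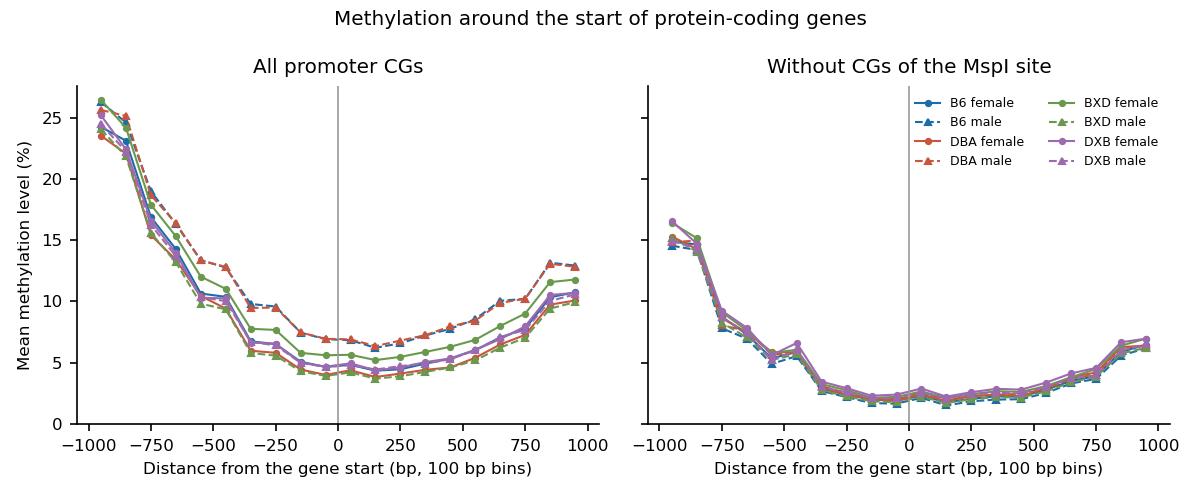
Mean methylation level (%) in bins of 100 bp by distance from the gene start in bp (negative is upstream), 1 line for each mouse, for all promoter CGs (left) and without CGs of the MspI site (right). Every line is low around the start and, more than 800 bp from it, higher upstream than downstream, and in the left panel the B6 male and the DBA male lie above most other mice.

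Levels also differed between parts of the gene. Outside the MspI site, coding exons within the window averaged 4.53 ± 0.262% and the non-coding part of exons 1.73 ± 0.242%. CGs outside exons averaged 2.59 ± 0.264% downstream and 3.51 ± 0.253% upstream of the start. Distance and gene part change together in this window, and they cannot be told apart in these means. A sharp boundary within 1 promoter was rare among CGs outside the MspI site. Of 1755 genes with a CG under 10% in every mouse within 200 bp and any CG farther out, 18 had a CG farther out at 70% or more in every mouse, with 15 such CGs upstream and 12 downstream. CGs of the MspI site were left out of these counts, and of 1007 promoter CGs at 70% or more in every mouse, 452 lay outside it. The 15 and 12 were not set against the CGs measured on each side. Of all promoter CGs, 17743 lay upstream and 42119 downstream.

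Mice differed little from each other at most promoter CGs. The SD over the 8 mice averaged 3.12 points at promoter CGs and 5.55 points at other CGs, where counting of reads alone would give 2.16 and 4.06. At like levels the 2 kinds of CG were closer in spread. For CGs between 30% and 70% the SD averaged 10.8 points at promoters and 11.04 points elsewhere, and for CGs of 70% and over it was 5.53 and 4.78 points. An SD above 20 points was found at 117 promoter CGs (0.195%) and at 1.18% of other CGs. Of these promoter CGs, 47 were outside the MspI site. With that site left out the SD averaged 1.46 points at promoter CGs and 4.87 points at other CGs. There counting of reads alone would give 1.25 and 3.78. The spread was described and not tested.

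Promoters were next taken as wholes, as the mean over the CGs of a gene, for the 4883 genes with at least 5. Most were unmethylated. The median promoter was at 3.34%, and 3829 promoters (78.4%) were under 10% in every mouse. Only 44 (0.901%) were methylated, that is at 70% or more in every mouse, and 18 were intermediate, between 35% and 65% in every mouse. Just inside the limit of 70% were H1fnt with a lowest mouse of 70.6%, Krt81 (70.6%) and Dkkl1 (71.7%). In H1fnt the lowest mouse was the DBA male, which read 0% at 1 of the 5 CGs. Just outside it were Hes7 (69.9%), Hopx (67.5%) and Spnb5 (66.0%).

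Methylated promoters were poor in CG. The ratio of observed to expected CGs in the 500 bp on each side of the start had a median of 0.435 in methylated promoters, 0.464 in intermediate ones and 0.794 in those under 10%. Below a ratio of 0.2 there were 6 promoters, 1 of them methylated. Where the ratio was 0.2 to 0.4, 14 of 125 promoters (11.2%) were methylated. At 0.4 to 0.6 it was 22 of 628 (3.50%), at 0.6 to 0.8 it was 6 of 2007 (0.299%), and above 0.8 it was 1 of 2117 (0.0472%). The share fell with each step from 0.2 upward, but most promoters of low ratio were still not methylated. Fkbp6, with a ratio of 0.775, was methylated in spite of a high ratio, at CGs 1 to 332 bp after the start. The water channel gene Aqp5, with a ratio of 0.912, was methylated at CGs 632 to 952 bp after the start. These lie outside the 500 bp in which the ratio was taken, and no CG of Aqp5 within them was measured. Aqp5 was named after its values were seen.

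**Figure D3:**
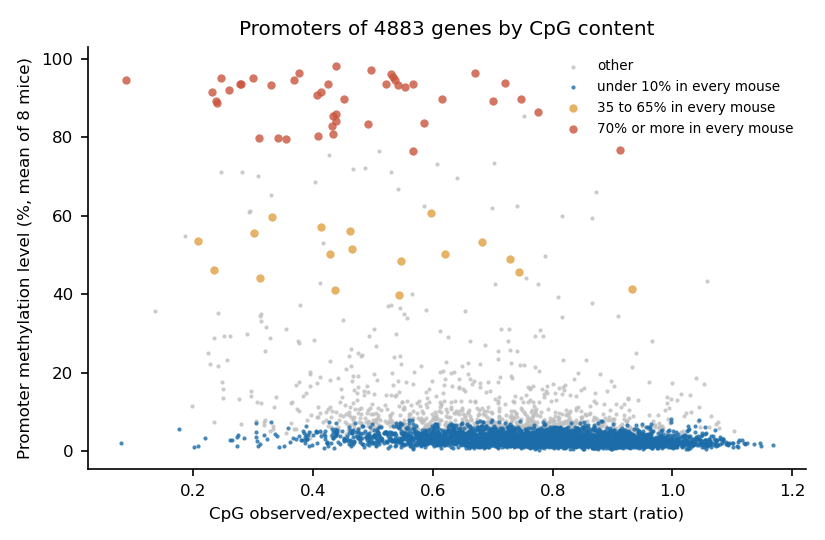
Each point is the promoter of 1 of 4883 genes, with its ratio of observed to expected CGs within 500 bp of the start (horizontal) and its mean methylation level in 8 mice (%, vertical). The 44 methylated promoters (red) lie mostly at low ratios, with a median of 0.435 against 0.794 for promoters under 10% in every mouse (blue).

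The measured CGs of methylated promoters lay farther from the start than those of promoters under 10% in every mouse. Their median distance was 443.5 bp, against 261 bp in promoters under 10% and 484 bp in intermediate ones. In 25 of the 44 methylated promoters no measured CG was within 200 bp. In the other 19 the 78 CGs within 200 bp averaged 87.8%, with the lowest at 61.5%. Of all CGs of methylated promoters 59.3% were in coding exons, against 20.8% for promoters under 10%. These positions were described and not tested.

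Genes of a single exon were frequent among the methylated promoters, with 16 of 44 (36.4%) against 4.34% of all 4883. From 250 bp before to 50 bp after the start, TCCCGC, a core of E2F sites, was found on either strand in 6.82% of methylated promoters and in 40.8% of all. CACGTG was found in 9.09% and 11.04%, and TATAAA in 6.82% and 6.02%. None of the 3 motifs contains another, and a match is a description of the sequence. Another coding start of the same gene, more than 1000 bp away, was annotated for 6 of the 44 genes (13.6%) and for 27.0% of all. A methylated annotated start does not show that such a gene has no unmethylated start.

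Among the methylated promoters with the most CGs, several were genes of the testis. Fkbp6, which is needed for meiosis in male germ cells, had 14 CGs and a mean of 86.6 ± 5.69% (n = 8). It stood at 88.3% in the B6 female, 89.6% in the B6 male, 88.2% in the DBA female, 72.9% in the DBA male, 85.7% in the BXD female, 88.9% in the BXD male, 90.1% in the DXB female and 89.0% in the DXB male. The DBA male was below all others.

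Pdha2, the testis form of a pyruvate dehydrogenase subunit, had 8 CGs at 95.1 ± 1.17%, with mice from 92.9% to 96.7%. Rpl10l, the testis copy of a ribosomal protein gene, had 94.0 ± 2.31%, and Sohlh2, a transcription factor of early germ cells, 93.7 ± 1.11%. Tssk1, a kinase of sperm, was at 93.7 ± 1.45%, and the start of Dgcr2 lies 58 bp from its own. D1Pas1, an RNA helicase of male germ cells, was at 89.7 ± 5.88%, with the DBA male lowest at 76.6%. Except at D1Pas1, the SD over mice was 2.31 points or less at these promoters. The CGs lay 808 to 968 bp after the start in Pdha2, 566 to 732 bp in Sohlh2 and 595 to 634 bp in D1Pas1. All 8 CGs of Pdha2 and all 7 of D1Pas1 were in coding exon. Nearer the start were the CGs of Rpl10l (-94 to 58 bp) and Tssk1 (143 to 325 bp).

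Some of the others have known roles outside the germ line. Krt79, a keratin of skin, was at 89.3 ± 3.21% over 11 CGs. Lrrc4, an adhesion protein of nerve synapses, was at 96.2 ± 1.18%, Prph2, a protein of photoreceptors, at 79.9 ± 3.98%, and the odorant receptor gene Olfr284 at 91.5 ± 1.71%. Dnajb7 (93.7 ± 1.53%), which encodes a co-chaperone, Wfdc15a (86.1 ± 1.04%) and Abhd16b (92.2 ± 2.19%) completed the named genes. At Dnajb7, Abhd16b and Olfr284 every measured CG lay in coding exon, and at Krt79, Lrrc4, Prph2 and Wfdc15a some did. In all, 30 of the 44 carry gene names, and the others have provisional names, which were only counted. With each mouse left out in turn, 44 to 46 promoters were at 70% or more in every remaining mouse. Other limits moved the count, to 2 of 1419 promoters with at least 30 reads, 22 of 3889 with a window of 500 bp, 21 of 3830 without the MspI site, 6 of 2272 with at least 10 CGs and 76 of 5448 with the starts of all coding transcripts.

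Germ cell genes were the list with the most methylated promoters. Of 48 germ cell genes, 46 were on annotated autosomes, 20 had a promoter CG, and 14 of these were at 70% or more in every mouse, while 341 of the 7702 gene symbols with a promoter CG were. With 5 or more CGs there were 10, of which 6 were methylated and 1 was under 10%, against 0.901% and 78.4% of all promoters. The 6 became 0 with at least 30 reads, 3 with a window of 500 bp, 4 without the MspI site and 1 with at least 10 CGs. These settings left 1419, 3889, 3830 and 2272 promoters over all genes, so a gene could also drop out for too few CGs. How many of the 10 stayed in was not counted. The median of the 10 was 86.0%, against 3.34% over all promoters. Of the 10, Brdt, a chromatin reader of spermatocytes, was highest at 95.3 ± 1.25% (n = 8), and all its CGs lay 507 to 708 bp after the start. Zar1, a gene of the egg, was lowest at 1.23 ± 0.678%. Among those with fewer CGs, named after their values were seen, Tex15 was at 9.50% over 2 and Tuba3b at 98.3% over 3.

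Of the 10, Smc1b, a cohesin subunit of meiosis, was next lowest with 42.7 ± 9.51% (35.1% without the MspI site), where Ribc2 starts 142 bp away. It read 49.9% in the B6 female, 22.2% in the B6 male, 44.0% in the DBA female, 35.2% in the DBA male, and 44.5% to 48.9% in the F1 mice. Both parent males were below the other mice. The lowest of these levels were in the libraries that stood apart.

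Of 10 housekeeping genes with 5 or more CGs, 9 were under 10% in every mouse, against 78.4% of all such promoters, and their median was 2.84% against 3.34%. With any promoter CG it was 14 of 19, against 4591 of 7702 genes. Of the 10, Ppia, a protein folding enzyme, was lowest at 1.57 ± 1.05%, followed by Gpi1, an enzyme of glycolysis, at 1.63 ± 0.878%. Reep5 was highest at 4.45 ± 2.08%, after Tbp, the TATA-binding protein, at 4.11 ± 1.94%. Without the MspI site Reep5 was at 0.589% and Tbp at 0.339%. The gene not under 10% in every mouse was Rps3, which reached 10.8% in the B6 male. Without the MspI site the highest mouse of Rps3 was at 1.29%. Rps3 was named after its values were seen. So were Chmp2a, at 56.7 ± 5.89% over 2 CGs, and Eef1a1, whose only CG, of the MspI site, read 38.9% to 52.7% in the parents and 5.71% to 25% in the F1 mice, a difference that was called between generations (edgeR, adjusted p = 0.0188).

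Transcription factors of development are off in adult liver in large part. Of 20 with 5 or more CGs, 17 were under 10% in every mouse, against 78.4% of all such promoters, and none was methylated, against 0.901% of all. Their median was 4.19%, against 3.34% over all. With any promoter CG, 19 of 32 were under 10% in every mouse, against 4591 of 7702 over all genes, which is near the same share. Of the 20, Gata2, a factor of blood progenitors, was lowest at 1.06 ± 0.698%, then En2 at 2.48 ± 1.35%. En1 was highest at 7.97 ± 2.79% and Pax9 followed at 6.89 ± 2.70%. En1 and Pax9 exceeded 10% in the B6 male and the DBA male, and in no other mouse. Without the MspI site the highest mouse was at 7.41% for En1 and 6.98% for Pax9. Levels above that of En1 were found at factors with fewer CGs, named after their values were seen: Nkx2-5 (21.1%), Gata3 (17.95%), Gsc (13.4%) and Tbx20 (11.01%) with 1 CG each, Hoxa9 (10.5% over 3), Pax7 (9.32% over 4) and Lhx9 (8.22% over 4). At Gata3 the B6 male and the DBA male read 35.2% and 40.0% and the others 5.56% to 15.5%, and at Nkx2-5 they read 48.1% and 35% and the others 3.70% to 23.4%.

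Hepatocyte genes were covered poorly, as only 10 of 42 had a promoter CG and 5 had 5 or more. Of the 10, 3 were under 10% in every mouse, against 4591 of 7702 genes, and their median was 19.7%, against 4.33%. Ass1, an enzyme of the urea cycle, was at 3.07 ± 1.85% and Apoh at 1.73 ± 0.820%. The annotated start of Apoh belongs to 1 distant transcript, Prkca starts 574 bp away, and the other coding starts of Apoh lie 37810 to 51939 bp off. Gnmt, an enzyme of methyl group metabolism, was at 10.7 ± 2.72%. Of the 5, Fgb, a fibrinogen chain, was highest, with 18.3% in the B6 female, 15.99% in the B6 male, 14.8% in the DBA female, 32.1% in the DBA male, and 29.2% to 39.6% in the F1 mice. Fgb was thus above 10% in every mouse, and its F1 mice were not all above its parents. Nr1i3, named after its values were seen, was at 36.0% at its only CG.

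Markers of other cells were low at some promoters and high at others. Of 4 blood cell genes with a promoter CG, 2 were at 70% or more in every mouse and 1 was under 10%, with a median of 82.7%. Over all 7702 genes with a promoter CG, 341 and 4591 were so, and the median was 4.33%. Of the blood cell genes only 1 had 5 or more CGs. It was Lcp1. This gene of white blood cells was at 1.47 ± 0.505%, with the start of Lrrc63 218 bp away. Of the lists for other liver cells, Reln was at 2.38 ± 1.08%, Des at 7.32 ± 1.24%, and Pdgfrb, a receptor of stellate cells and pericytes, at 20.3 ± 3.93%. Of the genes of other tissues, Nefm of neurons was at 4.60 ± 1.18% and Syt1 of synapses at 6.40 ± 1.29%. Myod1 of muscle was at 7.13 ± 2.37% and Mbp of myelin at 8.02 ± 3.28%. Another 8 coding starts of Mbp lie 79317 to 79437 bp from the one used, and 3 of Lcp1 lie 5231 to 59228 bp off. The levels given here need not be those of such starts. Without the MspI site Pdgfrb was at 11.7% and Mbp at 1.73%, while Des moved less, to 6.87%. With 5 or more CGs these lists held 1, 4 and 4 promoters, and none was methylated, too few to set against 0.901% of all. Those with fewer CGs, named after their values were seen, included Zap70 (85.2% over 3 CGs), Cd79b (85.0%) and Cd48 (80.5%, 1 CG each) of blood cells, Spp1 (77.1% over 2) and Tie1 (77.1% at 1) of other liver cells and Myog of muscle (96.6% at 1), and also Lrat of stellate cells (6.05% over 3).

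**Figure D4:**
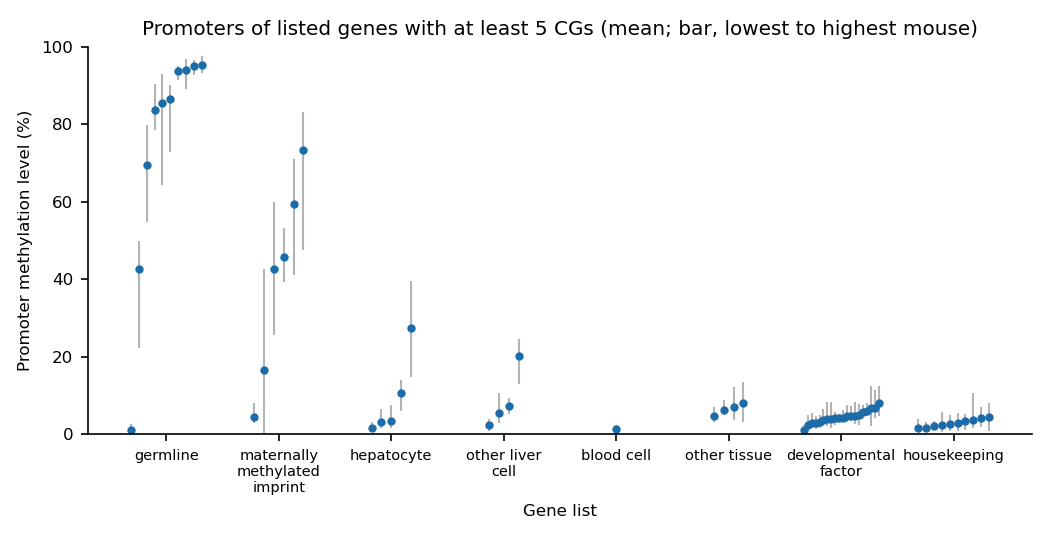
Methylation level (%) of listed genes with at least 5 promoter CGs, by list, with the mean of 8 mice as a point and the lowest to the highest mouse as a bar. Germ cell genes have a median of 86.0%, genes listed for imprinted loci with maternal methylation range from 4.42% to 73.5%, and developmental factors and housekeeping genes stay low.

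Of 10 genes with a promoter CG from a list of imprinted loci with maternal methylation, the 6 with 5 or more CGs ranged from 4.42% to 73.5% at their starts. Whether these starts lie in the maternally methylated region of their locus was not tested, so a level here need not be that of an imprint. Nap1l5 was at 73.5 ± 11.8% and Nnat, over 20 CGs, at 59.5 ± 9.75%. Peg10 was at 42.6 ± 11.6%, with Sgce starting 102 bp away. The lowest of these 6 were Igf2r and Inpp5f, at 16.6 ± 18.2% and 4.42 ± 1.72%. Among the 4 with fewer CGs, named after their values were seen, Commd1 was at 4.54% over 4 CGs, Plagl1 at 21.1% over 3, Grb10 at 37.2% over 2 and Slc22a2 at 96.7% over 2. The maternally methylated region of Igf2r is known to lie in an intron, and the 6 CGs measured here lay 110 to 154 bp after the start. For Inpp5f, taking the starts of all coding transcripts changed the level to 33.1%, and 2 such starts lie 24829 and 77161 bp from the one used.

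Zrsr1, a splicing factor gene in this list, was the intermediate promoter with the most CGs, 19. It read 39.4% in the B6 female, 40.6% in the B6 male, 46.6% in the DBA female, 48.9% in the DBA male, 53.2% in the BXD female, 44.2% in the BXD male, 49% in the DXB female and 43.5% in the DXB male. Of its CGs, 15 were between 35% and 65% and none was under 10% or at 70% or more. The level was intermediate at the CGs themselves, as in the printed stretch.

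Some other intermediate promoters combined low and high CGs. Klhl17 had a mean of 41.4 ± 1.14% over 15 CGs, of which 6 were under 10% and 6 at 70% or more. Elfn2 was at 39.9 ± 2.57%, with 4 CGs of each kind. Parn, which removes poly(A) tails, was at 53.3 ± 2.18%, with 2 low and 4 high CGs, and Mettl22 was at 50.2 ± 3.25%. Without the MspI site Parn was at 44.7% and Mettl22 at 60.6%. Nudt22 (57.1 ± 2.18%), Def6 (59.6 ± 4.57%), Cpsf4l (46.2 ± 3.71%) and the potassium channel gene Kcng1 (50.4 ± 2.66%) had no CG under 10%. They held 4, 5, 1 and 3 CGs at 70% or more, and 1, 2, 5 and 1 CGs between 35% and 65%. Of the 18 intermediate promoters, 15 held a CG at 70% or more, 7 held both a CG under 10% and a CG at 70% or more, and 3 held neither.

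The study's main contrast is that of the parent strains. Over all promoter CGs the mean level was 7.15 ± 2.07% in DBA and 7.42 ± 1.64% in B6 (n = 2 each), a difference of -0.273 points (two-sided exact permutation test, p = 1, where 2 against 2 mice can give no less than 0.333). With the MspI site left out it was 0.262 points in the other direction (3.03% and 2.77%, exact permutation p = 0.333, the smallest possible), and both DBA mice (3.01% and 3.05%) were above both B6 mice (2.89% and 2.65%). Males were at 7.24 ± 1.60% and females at 6.36 ± 0.635% (n = 4 each, difference 0.874 points, exact permutation p = 0.400). F1 mice were at 6.32 ± 0.697% and parents at 7.29 ± 1.54% (difference -0.970 points, exact permutation p = 0.286). Both differences changed sign without the MspI site, to -0.248 and 0.251 points, and without both parent males.

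At single CGs, promoters held few strain differences. A CG was called where edgeR's quasi-likelihood test gave a Benjamini-Hochberg adjusted p below 0.05 over all autosomal CGs and the strain means were 20 points or more apart. Of 53026 promoter CGs tested, 31 were called (0.0585%), against 0.383% of all 165087 CGs tested. Lower in DBA were 21 (0.0396% of promoter CGs, against 0.322% of all CGs tested) and higher were 10 (0.0189%, against 0.0606%). The balance was 18 lower and 1 higher without the B6 female, 15 and 1 without the DBA male, and 12 and 12 without the DBA female. The 31 CGs lay at 17 genes, and at 23 of the 31 all F1 mice were between the parent means. Calls required parent means 20 points or more apart, and this share was not counted over all called CGs. Unadjusted p was below 0.05 at 1271 of the 53026 promoter CGs, where chance alone gives about 1 in 20. Limma on the levels called 10 (0.0189%, against 0.135% of all CGs), of which 8 were among the 31. Outside the MspI site edgeR called 28 of 38110 promoter CGs (0.0735%), against 0.671% of all 92535 CGs tested there. Leaving out the B6 female gave 19 calls, 16 of them among the 31, and leaving out the DBA male gave 16, all among the 31. Whether the lower share at promoters exceeds what their low levels allow was not tested.

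Called CGs came in runs and as isolated sites. Of the 31, 20 had another called CG within 100 bp, at 6 genes, and 11 were isolated. Neither these counts nor the next were made over all called CGs. At 7 isolated CGs both DBA mice were under 3%. Such a CG at the sperm histone gene H1fnt, 688 bp after the start, read 95.9% and 100% in the B6 mice and 40.7% to 50% in the F1 mice. Both DBA mice read 0%, of 19 reads in the female and 40 in the male, for which 3 counts would be 15.8% and 7.5% and the exact 95% binomial interval reaches 17.6% and 8.81%. Similar CGs were found at Mag, a myelin gene (89.8% and 56.0% in B6, 0% and 2.13% in DBA), and at Rap1gap (64.1% and 61.8%, 0% and 0.840%). Whether a base change at the CG lies under such sites was not tested. At Ddx31, Pm20d2 and Grwd1 the call rested on the DBA male, as in Ddx31 with 90.9% of 22 reads against 19.2% in the DBA female. The genes of this paragraph were named after their values were seen.

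As whole promoters, 1 of 4883 was called (0.0205%), and it was Sfi1, which encodes a centrin-binding protein of centrosomes. Its 5 CGs lie 165 to 20 bp before the start. It read 89.4% in the B6 female, 52.5% in the B6 male, 19.9% in the DBA female, 17.3% in the DBA male, 80.7% in the BXD female, 78.9% in the BXD male, 73.2% in the DXB female and 67.6% in the DXB male. The parents did not overlap, and the F1 mice lay above the mean of the parents, between the B6 mice. DBA was 52.3 points lower than B6 by means of 18.6% and 70.9% (edgeR, adjusted p = 5.96e-06).

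The call at Sfi1 depended on the mice and the model. Without the B6 female the difference was -33.9 points with an adjusted p of 0.99996 by edgeR. Limma gave an adjusted p of 0.366, and a model of the dose of DBA chromosomes 0.597. The CGs of Sfi1 had a median of 1864.5 reads, the most of all 4883 promoters, where the median promoter had 66.5. The part of this depth in the result was not tested, nor was whether its reads come from several copies of the sequence. Over all promoters the strains were a median of 0.753 points apart, and 27 promoters (0.553%) were 10 points or more apart, 17 of them lower in DBA.

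The following promoters were not called and were named after their values were seen. Arap1, a regulator of small GTPases, had 10 CGs and read 6.02% and 12.1% in B6, 41.3% and 38.7% in DBA, 30.7% and 17.6% in BXD, and 28.2% and 17.7% in DXB. The F1 mice all lay between the parents. Another 12 coding starts of Arap1 lie 13195 to 46321 bp from the one used. The difference was 31.0 points, with an adjusted p of 0.99992 by edgeR, although 4 of its CGs were called singly. Without the MspI site it was 38.2 points with an adjusted p of 0.0210, and it was then the promoter called, since Sfi1 kept only 3 CGs. With all CGs in place Arap1 was called beside Sfi1 without the BXD female (adjusted p = 0.0382), without the BXD male (0.0279) and without both parent males (0.0293), all by edgeR.

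Sfn, the 14-3-3 sigma gene, was 26.3 points higher in DBA, with 14.4% and 25.2% in B6 and 48.2% and 43.9% in DBA, and its F1 mice read 24.3% to 34.7%. Spag1, a gene for assembly of cilia, read 9.08% and 6.00% in B6, 28.3% and 21.03% in DBA and 5.03% to 10.6% in the F1 mice. In the 100 kb window of Sfn a share of 0.406 of the B6 male's sorted reads carried the DBA tag, and their part in this result was not tested. In Sfn the F1 mice were between the parent means, and in Spag1 they were near the level of B6. Slc25a31, an ADP/ATP carrier of sperm from the germ cell list, was 20.1 points lower in DBA, with 93.1% and 90.3% in B6 and 78.8% and 64.3% in DBA.

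**Figure D5:**
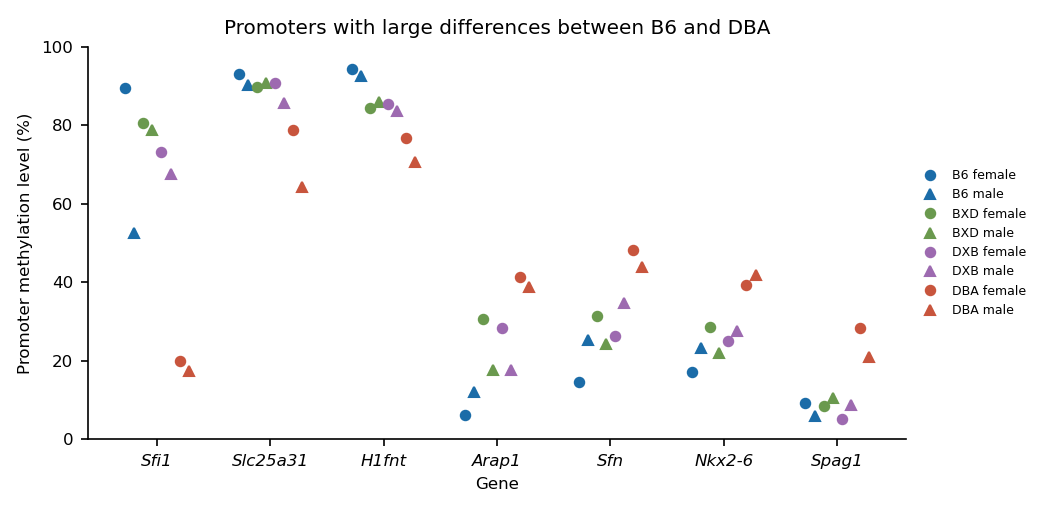
Methylation level (%) of the 7 promoters with the largest differences between B6 and DBA (provisional gene names left out), chosen after their values were seen apart from Sfi1, with 1 point for each mouse (circles female, triangles male, colours for the groups). Only Sfi1 was called, and in Spag1 the F1 mice lie near the level of B6. For H1fnt the difference is -19.9 points over 5 CGs, and at 1 of these CGs it is -98.0 points.

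By the rule of 1 mouse against 1, in which each level lies outside the other's exact 95% binomial interval and the levels differ by more than 50 points, the female parents gave 24 promoter CGs (0.0401%, against 0.361% of all CGs by this rule) and the male parents 25 (0.0418%, against 0.326%). Of these, 19 and 17 were lower in DBA (0.0317% and 0.0284%, against 0.321% and 0.244% of all CGs), and 5 and 8 were higher (0.00835% and 0.0134%, against 0.0397% and 0.0817%). Both sexes gave 10 of the same CGs, at 8 genes, and all 10 were lower in DBA. The overlap of the sexes was not counted over all CGs, where most calls in either sex were lower in DBA too. This rule covers counting error only.

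Sex gave 1 promoter CG (0.00189%, against 0.0472% of all CGs), at Snx29, a sorting nexin gene, 103 bp after the start. Females read 95.7% (B6), 35.5% (DBA), 60.2% (BXD) and 56.0% (DXB), and males 30.8%, 17.6%, 8.18% and 33.6%. All males were below all females, by means of 22.6% and 61.8% (difference -39.3 points, edgeR, adjusted p = 0.00446). The CG is of the MspI site, and the call was lost when any 1 of the B6 and BXD mice was left out. Without the BXD male 60 promoter CGs were called, 58 of them higher in males, and without the BXD female 22, 20 of them higher in males. In the fit of all 8 mice 0.0406% of all CGs were lower in males and 0.00666% higher. For the fits without a BXD mouse the shares over all CGs were not counted. With the MspI site left out of the fit 1 other promoter CG was called (0.00262%, against 0.0854% of all CGs), at the cytochrome P450 gene Cyp2u1, with 52.4% in females and 19.9% in males (edgeR, adjusted p = 0.00746). It was named after its values were seen. At an unadjusted p below 0.05 there were 3120 of 53026 promoter CGs, where chance alone gives about 1 in 20, and limma called none.

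The F1 mice differed from the parents at 46 promoter CGs (0.0867%, against 0.167% of all CGs), 31 higher in the F1 mice (0.0585%, against 0.0775%) and 15 lower (0.0283%, against 0.089%). With each mouse left out the count ran from 3 without the DXB male to 121 without the BXD female, and the balance turned to 12 higher and 109 lower without the BXD female and to 8 and 22 without the B6 female. The 15 lower ones were all of the MspI site, and at 14 the B6 male and the DBA male were above every F1 mouse. At 27 of the 31 higher ones, the BXD female, the DXB female and the DXB male were above the other 5 mice and the BXD male was under 20%. Tomm22, a receptor for import into mitochondria, had such CGs 329 and 350 bp after the start. The second read 71.4% in the BXD female, 50% in the DXB female and 72.7% in the DXB male, and 0% in the BXD male and all 4 parents. Eml6 at -51 bp read 60.7%, 56.1% and 43.7% in the same 3 mice and 0% in the other 5.

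These 3 libraries also differed in their reads. None of their CGs with 10 reads lay more than 50 bases from the MspI site, against 22.6% to 36.4% in the other 5 libraries. Those 5 were not alike, as the B6 male and the DBA male had none more than 76 bases from it. The B6 female, the DBA female and the BXD male had 16.8% to 17.4% there. The part of read length in these calls was not tested. The mean of Igf2r reported above has the same pattern, with 35.1%, 42.8% and 36.4% in these mice and 0.355% to 10% in the other 5. With the MspI site left out 25 promoter CGs were called (0.0656%, against 0.18% of all CGs), all 25 higher in the F1 mice, where 0.101% of all CGs were higher and 0.08% lower. Limma called no CG, and 4596 promoter CGs had an unadjusted p below 0.05. The remaining 4 higher CGs were those of Sfi1, at which the F1 mice were closer to B6 than to DBA.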

How the data were processed

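RRBS was done by the authors on liver DNA of 8 mice, and reads were aligned to mm9 with BS Seeker, keeping unique positions. BS Seeker's version, trimming and duplicate handling were not given in the sources used here. For each cytosine, mouse and class of reads sorted by strain, the authors deposited raw counts of methylated and unmethylated reads, and also the level as a fraction. The authors' tables of their own comparisons (means, differences and p-values) were not used, nor were expression data analysed here.

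Counts were added over classes. A level is the percentage of methylated reads, and means over CGs weight each CG equally. Each CG was given to the nearest of the starts, and the strand was taken from the annotation. CGs with at least 10 reads in all 8 mice entered. Depth sets the precision, since 1 read in 10 is 10 points, and depth per mouse is given with the results. Exact intervals and the limit of 3 counts cover counting error only.

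EdgeR's quasi-likelihood test was fitted to the methylated and unmethylated counts of all autosomal CGs, with 4 strains and sex, and adjusted by Benjamini-Hochberg over all of them. The call also needed 20 points, or 10 points for a whole promoter with 5 CGs. With 1 mouse for each strain and sex, p-values rest on the spread left by an additive effect of sex. Means were compared by exact permutation, two-sided (256 sign flips for 8 mice, 70 splits for 4 against 4, smallest p 0.0286). Alternatives covered depth, window, starts, limma, the size of the difference, the dose of DBA chromosomes, isolated calls, windows with DBA tags in the B6 male, each mouse left out and, added after seeing the data, the MspI site and both parent males left out. Scripts were tested on simulated data.

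Members and gene lists were chosen with earlier results of these data known. Genes named were the 10 methylated promoters with most CGs (ties included), called whole promoters, the 2 highest and 2 lowest of each list, the 8 intermediate promoters with most CGs (ties included) and up to 4 calls by sex and by generation. Provisional names were counted only. The result for 1 listed gene is not reported here. Sequences came from NCBIM37 in windows free of annotated UTRs. Work used Python 3.11.15, numpy 2.4.6, pandas 2.3.3, scipy 1.17.1, pysam 0.24.0, matplotlib 3.10.9, R 4.3.3, edgeR 4.0.16, limma 3.58.1 and samtools 1.23.1.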

Additional observations from a re-analysis of the deposited data

Results flagged for a closer look

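In 6 of 69 sets of values, 1 mouse lay far from the rest by Dixon's gap, and chance flags about 1 in 20. A set held 8 mice, or 4 for the mean promoter level within a sex or a generation. The DBA male was low at Fkbp6, with 72.9% against 85.7% to 90.1% in the others, and at D1Pas1, with 76.6% against 86.2% to 94.7%. The DXB male was low at Def6, with 48.998% against 57.5% to 62.8%. The BXD female was high at Cpsf4l, with 54.3% against 41.9% to 47.3%. The DXB female was high at Kcng1, with 56.1% against 47.6% to 51.5%, and at Myod1, with 12.1% against 3.71% to 7.50%.

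The mean promoter level of DBA minus that of B6 was -0.580 points in females and 0.0328 points in males, with 1 mouse on each side, and this difference was not tested. The reads sorted by strain entered every level, but no comparison of groups used the sorting itself, which served only to leave out windows in an alternative. By it, 16.1% of the calls of the B6 male carried the DBA tag, against 0.338% in the B6 female.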

How the results depend on the processing

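The differences of promoter from other CGs, of far from near CGs and of downstream from upstream CGs kept their direction under each alternative run. With each mouse left out in turn they ranged from -55.9 to -55.4, from 8.40 to 8.49 and from -4.35 to -4.28 points. Far minus near moved more with a window of 500 bp (1.90), starts of all coding transcripts (13.2) and the MspI site left out (5.67), and downstream minus upstream with a window of 500 bp (-2.66) and the MspI site left out (-2.16). With at least 30 reads, 11 CGs were called for strain, 0 for sex (839 at an unadjusted p below 0.05) and 0 for generation (1266) by edgeR, 2 promoters were methylated, and the parents gave 11 (females) and 3 (males). A window of 500 bp gave 22 methylated promoters and 16 CGs for male parents. Starts of all coding transcripts gave 7 CGs for sex, 76 methylated promoters and 40 CGs for each pair of parents. Without the MspI site, the means reversed to 0.262 (strain), -0.248 (sex) and 0.251 points (generation), with 25 CGs for generation, 21 methylated promoters and 13 CGs for male parents. Without both parent males, sex reversed to -0.488 and generation to 0.344 points, and 2 whole promoters were called. Limma called 10 CGs for strain, 0 for sex (1116 at an unadjusted p below 0.05), 0 for generation (1899) and 0 whole promoters (110). No limit on the difference gave 5 CGs for sex and 114 for generation. The dose model gave 0 whole promoters (38 at an unadjusted p below 0.05). A limit of 20 points gave 515 CGs for female and 790 for male parents. At least 10 CGs gave 6 methylated promoters and 0 whole promoters called (6 at an unadjusted p below 0.05). Leaving out isolated calls left 20 CGs for strain. The cause of these changes was not tested.

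With each mouse left out, strain means ranged from -1.74 to 1.19 points, reversing to 0.887 without the B6 male and 1.19 without the DBA female. Sex ranged from 0.415 to 1.45 and generation from -1.50 to -0.527 points. Strain calls ranged from 16 (without the DBA male) to 37, with 19 without the B6 female. Sex calls ranged from 0 (without the B6 female or the B6 male) to 60 (without the BXD male), with 22 without the BXD female and 4 without the DXB male. Generation calls ranged from 3 (without the DXB male) to 121 (without the BXD female), with 6 without the DBA female, 16 without the DBA male, 25 without the B6 male or the DXB female and 30 without the B6 female. Whole promoters called ranged from 0 (without the B6 female) to 2 (without either BXD mouse). Methylated promoters ranged from 44 to 46. A lone mouse of a strain was assumed to vary like the others. The labels give no replicate numbers, and mice were matched across groups only by sex, which was a term of the edgeR fit. Coverage of 10 reads limits single CGs, and 15181 of 53026 promoter CGs tested had 30 reads in every mouse.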
